A study of Homo sapiens with 6 samples.

Results

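The TGF-beta ligands *TGFB1*, *TGFB2* and *TGFB3*, their receptors *TGFBR1*, *TGFBR2* and *TGFBR3*, and the latent TGF-beta binding proteins *LTBP1* to *LTBP4* make up the 10 genes described here, chosen by symbol from the 20347 gene symbols in the deposited table of normalized counts. All 10 passed the minimum mean of 10 normalized counts over the libraries, as did 12773 genes in all. RNA-seq was performed on PaTu8988t, an established human cell line of pancreatic ductal adenocarcinoma (PDAC), in 3 control replicates and 3 clonally independent *SAMD1* KO clones, and these 6 libraries make up the whole comparison. SAMD1 is a chromatin protein that binds unmethylated CpG islands and acts mainly as a repressor. The KO clones had received a CRISPR plasmid with guides against *SAMD1* and the controls the same kind of plasmid with an unspecific guide. Both were selected with puromycin and grown in medium with fetal bovine serum, and the labels name no TGF-beta treatment.

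The sources do not say whether the control replicates were separate cultures, so p-values measure the spread between these libraries, which may be technical for the controls. Libraries held from 35589477 to 45172216 reads. *SAMD1*, the targeted gene, had 2231, 2382 and 2299 normalized counts in the controls and 874.1, 1082 and 824.8 in KO clones 1 to 3 (log2 fold change −1.32, adjusted p = 0.000724 in limma), so each library went with its label. Of 10 ductal and epithelial markers, 8 passed the minimum, and *KRT8* and *KRT18* were abundant (control means of 34191 and 29567 normalized counts). Of the 8, 3 were called higher in KO clones (*KRT7*, *KRT18* and *SOX9*) and 0 lower, against 5.77% and 2.08% of all tested genes. Only 2 of the 8 were higher with an adjusted p under 0.05 in limma. *KRT18* was called in 9 and *SOX9* in 11 of 15 other fits. With a library left out, their adjusted p was under 0.05 in 1 and 2 of 6 fits. *KRT19* was at 0 reads in every library, and *CDH1* (E-cadherin) averaged 38.3 normalized counts in controls and 41.5 in KO clones. Of 12 markers of immune, endothelial, stromal, endocrine and acinar cells, 6 had no reads (*CD3E*, *LUM*, *DCN*, *INS*, *PRSS1* and *CPA1*), and none of the 4 tested was called. At the shares over all tested genes, 4 genes would often hold no call. The summed level of the 12 was 816.7 to 827.7 normalized counts in controls and 645.4 to 731.3 in KO clones, and its part in the results was not tested. This sum pools markers of unlike cell types and does not show that any of these cells were present. In bulk RNA, fewer cells with a transcript and less of it per cell cannot be told apart.

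TGF-beta is secreted as an inactive complex, in which the growth factor is held by its own propeptide and the propeptide is bonded to an LTBP. LTBPs anchor this store in the extracellular matrix, from which integrins, proteases and other factors release the ligand. The freed dimer is bound by the type II receptor TGFBR2, which activates the type I receptor TGFBR1 to phosphorylate SMAD2 and SMAD3, and these enter the nucleus with SMAD4. TGFBR3, or betaglycan, is a co-receptor that is needed most for TGF-beta2, whose affinity for TGFBR2 is low. In PDAC the pathway restrains epithelial growth early and is tied to epithelial–mesenchymal transition later, and *SMAD4* and *TGFBR2* are among its recurrently mutated genes.

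After *SAMD1* deletion, 3 of the 10 genes rose (*LTBP1*, *LTBP3* and *TGFB3*), 1 fell (*TGFB2*) and 6 were not called. Calls needed a limma p below 0.01 before adjustment and a log2 difference of more than 0.5 in size, a cut-off that 5.77% of all tested genes passed as higher and 2.08% as lower. The same 4 genes also had a Benjamini-Hochberg adjusted p under 0.05 over all tested genes. In 5 of the 10 the control and KO libraries did not overlap, against 37.8% of all tested genes. The median log2 fold change was 0.09 over the 10 genes and −0.01 over all tested genes. The 10 genes were chosen with earlier results of these data known, so these counts are a description. The most abundant ligand and both signalling receptors were among the genes not called.

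**Figure D1:**
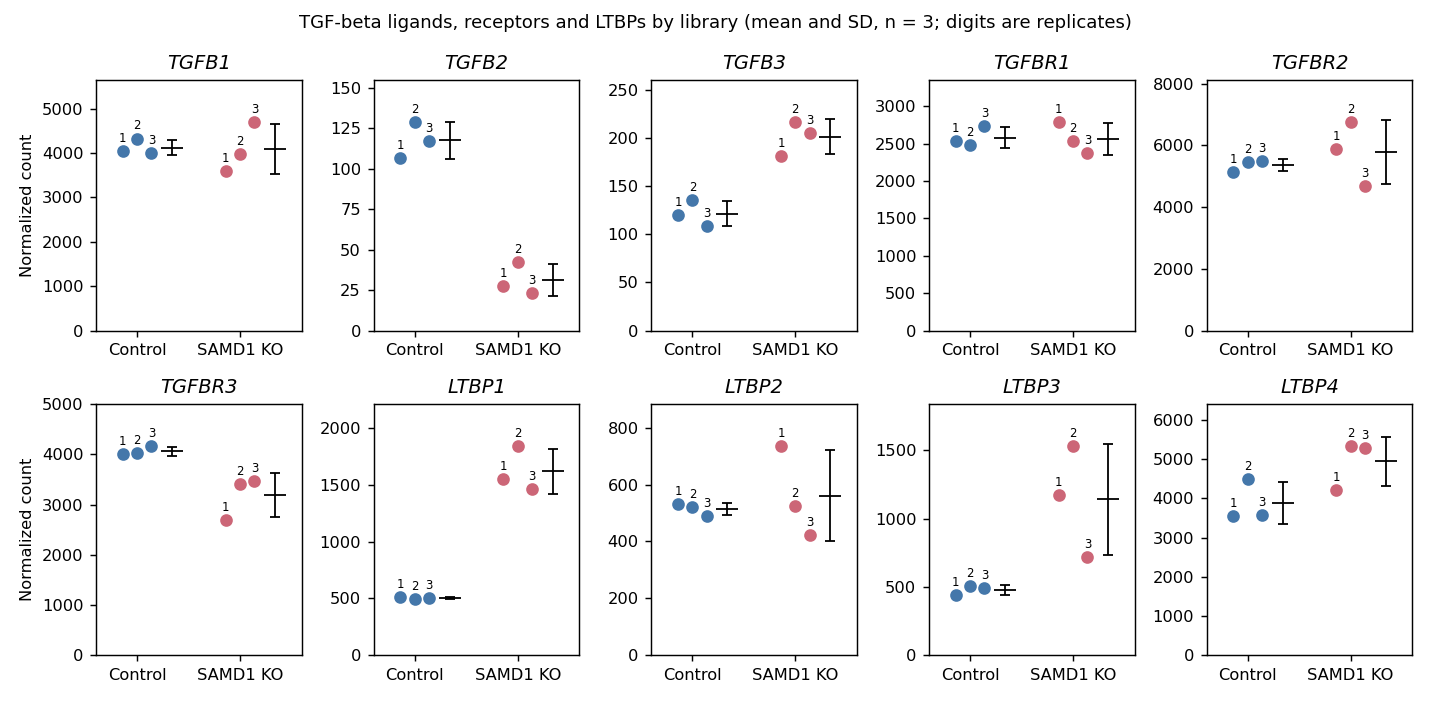
Normalized counts (linear axis from 0) of the 10 genes in each control replicate and each *SAMD1* KO clone, with the mean and SD beside the points. *LTBP1*, *LTBP3* and *TGFB3* lay higher and *TGFB2* lower in all 3 KO clones than in any control.

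Promoter sequence is shown for the 4 called genes, because SAMD1 is known from the study to occupy CpG islands with GCGC motifs. Binding was not analysed here. The lines give the 250 bases before the first listed RefSeq start of each gene (GRCh38.p14), 5′ to 3′ on the gene's strand, with GCGC in capitals. They lie at chr2:32946703-32946952 (plus strand) for *LTBP1*, chr11:65558360-65558609 (minus strand) for *LTBP3*, chr14:75983012-75983261 (minus strand) for *TGFB3* and chr1:218345086-218345335 (plus strand) for *TGFB2*, the last wholly inside exon sequence of *TGFB2-AS1*.
LTBP1: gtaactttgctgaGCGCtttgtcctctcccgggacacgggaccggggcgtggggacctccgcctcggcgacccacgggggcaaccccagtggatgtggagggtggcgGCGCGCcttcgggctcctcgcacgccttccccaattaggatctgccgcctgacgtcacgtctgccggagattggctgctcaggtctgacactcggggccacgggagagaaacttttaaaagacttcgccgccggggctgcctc
LTBP3: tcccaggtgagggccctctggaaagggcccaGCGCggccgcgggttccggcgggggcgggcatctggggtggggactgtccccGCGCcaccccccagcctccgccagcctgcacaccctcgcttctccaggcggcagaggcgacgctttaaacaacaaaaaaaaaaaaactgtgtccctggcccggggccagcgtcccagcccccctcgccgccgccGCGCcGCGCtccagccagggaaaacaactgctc
TGFB3: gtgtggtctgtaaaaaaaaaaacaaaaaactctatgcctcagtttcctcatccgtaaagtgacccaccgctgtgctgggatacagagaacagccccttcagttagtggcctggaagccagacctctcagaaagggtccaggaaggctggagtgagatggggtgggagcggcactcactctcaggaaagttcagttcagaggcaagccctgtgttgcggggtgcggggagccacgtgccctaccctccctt
TGFB2: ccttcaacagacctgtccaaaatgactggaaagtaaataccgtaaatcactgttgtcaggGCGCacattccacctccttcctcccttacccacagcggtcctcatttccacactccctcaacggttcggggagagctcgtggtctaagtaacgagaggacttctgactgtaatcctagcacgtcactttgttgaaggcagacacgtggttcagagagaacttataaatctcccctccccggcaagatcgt

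GCGC reads the same on both strands, and overlapping matches were counted. The windows of *LTBP1* and *LTBP3* held 3 and 4 matches among 24 and 23 CG pairs. That of *TGFB2* held 1 match and 11 CG pairs, and that of *TGFB3* no match and 6 CG pairs. Other listed starts could differ. The second *TGFB3* window held 1 match and 10 CG pairs, and both other *LTBP1* windows held 0 matches and 6 CG pairs. The other *LTBP3* window held 5 matches and 28 CG pairs. Of all 35116 windows of this length, 53.4% held at least 1 match and 22.0% at least 4. The median over these windows was 11 CG pairs. The windows of the 10 genes, 23 in all, held a match in 14. First listed windows of the genes not called held 4 matches (*TGFBR3*), 3 (*LTBP2*), 2 (*TGFB1* and *TGFBR1*) or 0 (*TGFBR2* and *LTBP4*). Another listed start of *TGFBR1* and of *LTBP4* held 8 each. The numbers of matches in called and uncalled genes thus overlapped, and no test was made. Which listed start is used in these cells was not determined. A match is a run of letters and not a site, and no match says only that these letters are not in this window.

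The ligands were set apart by level as much as by change. *TGFB1* (GRCh38 chr19:41301587-41353922, minus strand), the main TGF-beta of most tissues, had 4050, 4327 and 3994 normalized counts in the controls and 3590, 3982 and 4709 in KO clones 1 to 3. The KO clones lay on both sides of the controls and the groups overlapped. Means were 4124 ± 178 and 4094 ± 567 (SD, n = 3 each), with a log2 fold change of −0.02 (SE 0.099, with adjusted p = 0.922 in limma). *TGFB1* stood at 1263 normalized counts per kilobase of exon in controls, above 88.9% of tested genes on that scale.

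*TGFB2* (GRCh38 chr1:218345336-218444619, plus strand), a ligand with roles in development and in epithelial–mesenchymal transition, had 106.4, 129.2 and 116.8 normalized counts in the controls and 27.7, 42.3 and 23.4 in the clones. Every clone lay far below every control. The mean fell from 117.5 ± 11.4 to 31.1 ± 9.93 (SD, n = 3 each), which left 0.265 of the control level, and the log2 fold change was −1.92 (SE 0.245, with adjusted p = 0.00394 in limma). It was the least abundant of the ligands, and these values rest on 93, 132 and 102 reads in controls and 28, 49 and 26 in clones. Over the 6 fits that leave out a library the log2 fold change stayed between −2.16 and −1.74 and the adjusted p under 0.05. In GENCODE 44, 22.7% of its exon bases are shared with *TGFB2-OT1* on the same strand and 11.6% with *TGFB2-AS1* on the opposite strand. Neither was analysed here, and the *TGFB2* count is uncertain to the extent that reads there were assigned otherwise.

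*TGFB3* (GRCh38 chr14:75958097-75983011, minus strand), a ligand known for palate and epithelial development, had 120.1, 135.0 and 108.8 normalized counts in controls and 181.0, 216.9 and 205.1 in clones. The clones were all above the controls, and the 2 groups were separated by more than the spread within either. The mean rose from 121.3 ± 13.1 to 201.0 ± 18.3 (SD, n = 3 each), 1.66 times the control level, with a log2 fold change of 0.72 (SE 0.140, with adjusted p = 0.0172 in limma). Without control 1 or control 3 the adjusted p was 0.0891 and 0.0890, while the call on the unadjusted p was kept. Per kilobase of exon, *TGFB2* and *TGFB3* stood at 19.4 and 23.2 normalized counts in controls and at 5.15 and 38.5 in clones.

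As shares of the summed ligand level per kilobase, *TGFB1* made up 96.7 ± 0.154% in controls and 96.6 ± 0.463% in clones (SD, n = 3 each). *TGFB2* went from 1.49 ± 0.0988% to 0.405 ± 0.146% and *TGFB3* from 1.78 ± 0.119% to 2.99 ± 0.319%. *TGFB1* therefore accounted for nearly all ligand transcript in both groups, and the called changes concerned the small remainder. These shares are a description and were not tested.

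The largest rise among the 10 genes was found in the LTBPs. *LTBP1* (GRCh38 chr2:32946953-33399509, plus strand) encodes the prototype binding protein, which holds latent TGF-beta to fibronectin and fibrillin fibres. It had 512.5, 494.1 and 502.9 normalized counts in controls and 1553, 1844 and 1462 in clones. The controls differed by little and all clones stood well above them. The mean rose from 503.1 ± 9.18 to 1620 ± 199 (SD, n = 3 each), 3.22 times the control level, with a log2 fold change of 1.68 (SE 0.097, with adjusted p = 0.000278 in limma). With each library left out it stayed between 1.58 and 1.75, with the adjusted p under 0.05 in 6 of 6 fits. Counts per gene cannot separate the long and short *LTBP1* forms, which start at different promoters.

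*LTBP3* (GRCh38 chr11:65538559-65558930, minus strand), which also binds latent TGF-beta and is needed for tooth and bone growth, had 437.0, 508.8 and 490.3 normalized counts in controls and 1174, 1534 and 720.5 in clones. All clones were higher than the controls but they differed widely among themselves, clone 3 having the smallest rise. The mean rose from 478.7 ± 37.3 to 1143 ± 407 (SD, n = 3 each), 2.39 times the control level, with a log2 fold change of 1.19 (SE 0.249, with adjusted p = 0.0235 in limma). Without KO clone 3 the log2 fold change was 1.49 and the adjusted p 0.00239, and without clone 2 they were 0.94 and 0.0293. Without control 1, 2 or 3 the adjusted p was 0.109, 0.0853 and 0.0910, while the call on the unadjusted p was kept.

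*LTBP2* (GRCh38 chr14:74498183-74612378, minus strand), the LTBP that does not bind TGF-beta and serves elastic fibres and the ciliary zonule, had 531.9, 521.5 and 490.3 normalized counts in controls and 736.7, 524.4 and 423.6 in clones. The clones straddled the controls. Its log2 fold change was 0.09 (SE 0.188, with adjusted p = 0.790 in limma), and it was −0.13 without clone 1. *LTBP4* (GRCh38 chr19:40592883-40629818, plus strand), which binds TGF-beta1 weakly and serves elastic fibre assembly, had 3560, 4500 and 3585 normalized counts in controls and 4217, 5344 and 5279 in clones. Control 2 was above clone 1, so the groups overlapped. Its log2 fold change was 0.35 (SE 0.124, with unadjusted p = 0.0246 and adjusted p = 0.112 in limma).

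Among the LTBPs the levels per kilobase in controls were 478.6 normalized counts for *LTBP4*, 68.5 for *LTBP1*, 56.7 for *LTBP2* and 41.5 for *LTBP3*. In clones they were 610.0, 220.4, 61.9 and 99.2. The order of the last pair was thus exchanged in the means. Each library's summed LTBP level lay between 605.2 and 723.7 in controls and between 914.4 and 1101 in clones, without overlap, while the summed ligand and receptor levels overlapped. The share of *LTBP1* in the LTBP sum was 10.7 ± 1.22% in controls and 22.2 ± 1.29% in clones (SD, n = 3 each), and that of *LTBP4* 74.0 ± 2.31% and 61.5 ± 5.69%. *LTBP3* took 11.1% and 12.1% in clones 1 and 2 but 6.52% in clone 3, which was inside the control range of 6.10% to 7.01%. None of these shares was tested.

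**Figure D2:**
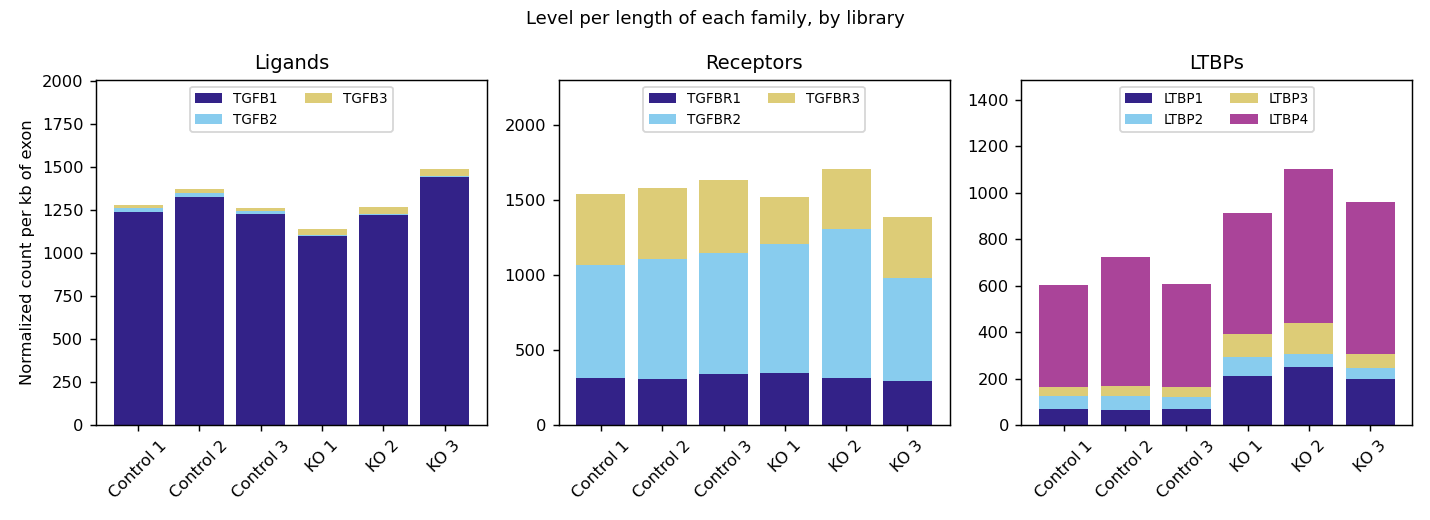
Stacked levels (normalized count per kilobase of exon) of the ligands, receptors and LTBPs in each library, 1 bar a library. *TGFB1* and *LTBP4* held most of their families in every library, and the *LTBP1* share was 20.7% to 23.1% in KO clones and 9.29% to 11.5% in controls.

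None of the receptors was called. *TGFBR1* (GRCh38 chr9:99104038-99154192, plus strand), the type I kinase, had 2536, 2477 and 2734 normalized counts in controls and 2796, 2530 and 2370 in clones. Clone 1 was above and clone 3 below all controls, and clone 2 lay among them. Its log2 fold change was −0.01 (SE 0.077, with adjusted p = 0.937 in limma). *TGFBR2* (GRCh38 chr3:30606601-30694142, plus strand), the ligand-binding type II kinase, had 5143, 5458 and 5486 normalized counts in controls and 5872, 6771 and 4689 in clones. Clones 1 and 2 were above and clone 3 below all controls, with a log2 fold change of 0.09 (SE 0.124, with adjusted p = 0.664 in limma).

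*TGFBR3* (GRCh38 chr1:91680343-91906335, minus strand), the co-receptor betaglycan, had 4007, 4023 and 4170 normalized counts in controls and 2687, 3410 and 3464 in clones. Every clone was below every control, clone 1 most. The means were 4067 ± 89.5 and 3187 ± 434 (SD, n = 3 each), a ratio of 0.784. The log2 fold change was −0.36 (SE 0.099, with unadjusted p = 0.00781 and adjusted p = 0.0558 in limma), which missed the fold cut-off and the adjusted threshold. Its adjusted p was under 0.05 in 3 of 6 fits with a library left out, those without a KO clone. Per kilobase, *TGFBR2*, *TGFBR3* and *TGFBR1* stood at 782.8, 474.1 and 323.2 normalized counts in controls and at 843.4, 371.6 and 321.1 in clones, the same order of means in both.

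**Figure D3:**
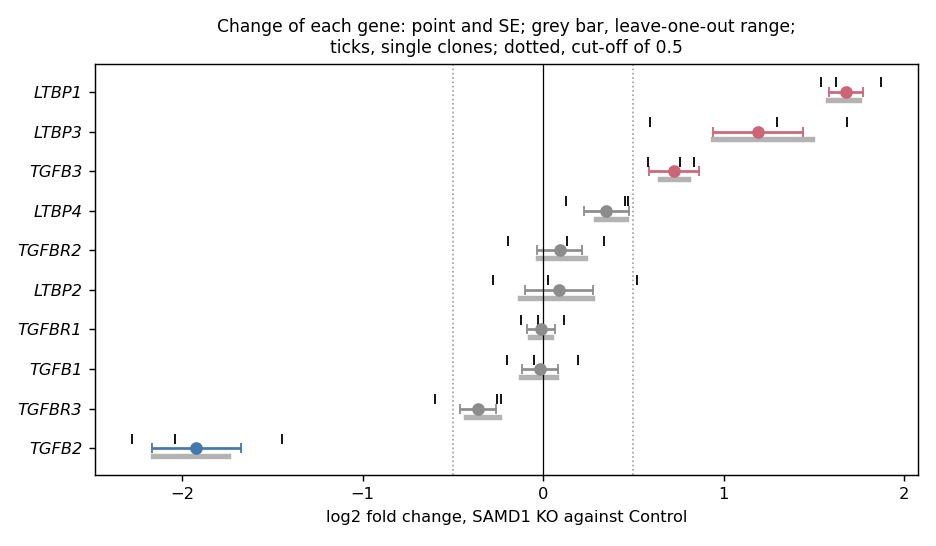
Log2 fold change (x axis, point with standard error) of the 10 genes in *SAMD1* KO clones relative to controls, with the range over fits that leave out a library (grey bar) and each clone's own difference from the control mean (ticks). *TGFB2* at −1.92 and *LTBP1* at 1.68 lay farthest from 0, and the clones of *LTBP3* spread from 0.59 to 1.68.

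The clones varied more than the controls for several of these genes. For *LTBP3* the SD of the log2 values was 0.552 in clones and 0.114 in controls, for *TGFB2* 0.428 and 0.139, and for *LTBP2* 0.402 and 0.061. For *TGFB3* it was 0.133 and 0.155, and for *LTBP4* 0.192 in both groups. In the remaining genes the clones also varied more. The clones are independent lines while the controls may be technical replicates, and what the difference in spread reflects was not tested. The clone farthest from the controls was not always the same. Clone 2 was farthest for *LTBP1*, *LTBP3* and *TGFB3* (log2 differences from the control mean of 1.87, 1.68 and 0.84), clone 3 for *TGFB2* (−2.28) and clone 1 for *TGFBR3* (−0.60).

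Levels of neighbouring genes were set beside these values. The median log2 difference of the 40 nearest tested genes lay between −0.08 and 0.10 in every clone for *LTBP1*, *LTBP3*, *TGFB2* and *TGFB3*, well short of the genes' own differences. Around *TGFB1* it was −0.0042, 0.184 and 0.391 in clones 1 to 3, rising with *TGFB1* itself (−0.20, −0.05 and 0.19). With this median removed, the log2 fold change of *TGFB1* was −0.21 (unadjusted p = 0.00148, adjusted p = 0.0170 in limma), below the fold cut-off. *LTBP4* lies on the same chromosome, and its neighbours cover much the same stretch as those of *TGFB1*. Their medians are thus not separate observations. Around *LTBP4* the median was −0.0014, 0.0799 and 0.326, and with it removed the log2 fold change of *LTBP4* was 0.22. Around *TGFBR2* the medians were 0.260, 0.224 and 0.0657, and its log2 fold change was then −0.09.

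**Figure D4:**
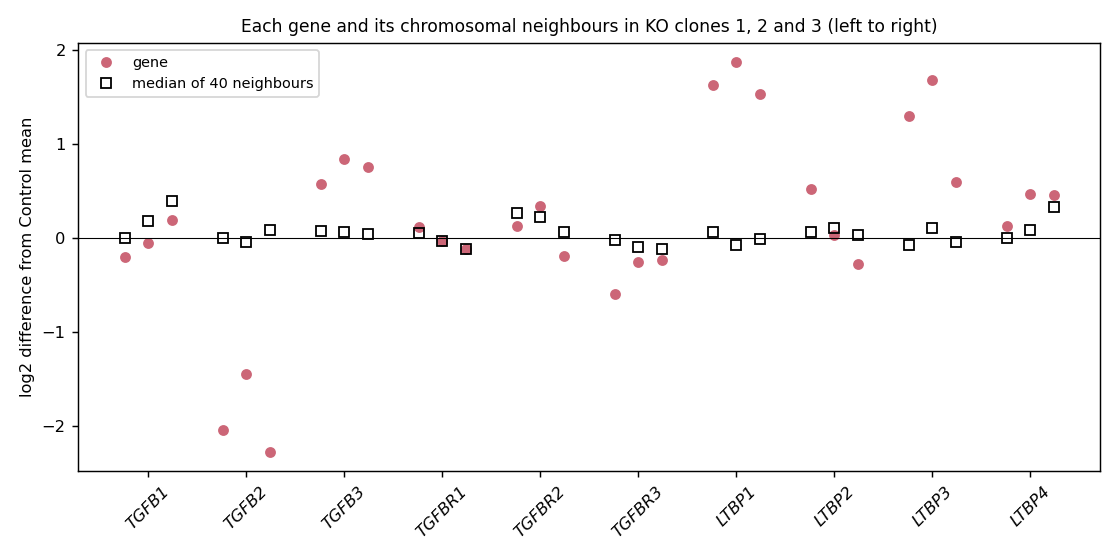
Log2 difference from the control mean in each KO clone for the 10 genes (filled points) and the median of their 40 nearest tested neighbours (open squares). The called genes stood well away from their neighbours, while *TGFB1* followed its neighbours from clone to clone.

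The wider pathway was described by 4 lists of genes around these 10. The lists were chosen with earlier results of these data known. Their counts and medians are therefore descriptions and give no support for a shift of the pathway. Over all tested genes, 5.77% were called higher and 2.08% lower. Of 26 genes for latent TGF-beta activation and matrix anchoring, 17 were tested, 5 rose and none fell, with a median log2 fold change of 0.31 against −0.01 for all tested genes. *ITGB5*, the beta subunit of the αvβ5 integrin, rose from 5653 ± 124 to 10046 ± 1363 normalized counts (log2 fold change 0.82, adjusted p = 0.00255 in limma). *TGM2*, a transglutaminase that cross-links LTBP1 to matrix, rose from 48002 ± 2167 to 78744 ± 6943 (0.71, adjusted p = 0.00265 in limma). *HTRA1*, a secreted protease that cleaves TGF-beta family proteins, rose from 459.9 ± 21.1 to 1207 ± 307 (1.36, adjusted p = 0.00499 in limma; SD, n = 3 each). The other 2 were the integrin subunits *ITGB3* and *ITGB8*, named after their values were seen, whose adjusted p was under 0.05 in 3 of 6 fits with a library left out, and *ITGB8* rested on 8 to 13 reads in controls.

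Of 25 activin and related ligands, receptors and co-receptors, 12 were tested. Of these 3 rose and none fell (5.77% and 2.08% over all tested genes), with a median log2 fold change of 0.21. *INHBB*, the activin B subunit, had 4, 2 and 5 reads in controls and 27, 67 and 38 in clones (log2 fold change 3.01, adjusted p = 0.00653 in limma). *ACVR1C*, the type I receptor ALK7, rose from 58.3 ± 6.03 to 115.2 ± 15.0 (SD, n = 3 each), with a log2 fold change of 0.97 (adjusted p = 0.0130 in limma). *GDF15*, a stress-induced ligand, was called with a log2 fold change of 1.02 but had an adjusted p of 0.0633 in limma, and it was called in 8 of 15 other fits.

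Of 30 SMADs and regulators of receptors or SMADs, 28 were tested, 2 rose and 1 fell, with a median log2 fold change of 0.04. These counts were close to the shares over all tested genes (5.77% higher and 2.08% lower) and set the list little apart. *SMAD4*, the partner that SMAD2 and SMAD3 need for most of their transcriptional output, had 1 read in control 2 and 0 reads in the other 5 libraries, where a count of 0 allows up to 3 reads. *SMAD4* was therefore practically unread in controls and clones alike, in libraries of at least 35589477 reads. *SMAD2* and *SMAD3*, the receptor-activated SMADs, had log2 fold changes of 0.03 and 0.15 (adjusted p = 0.800 and 0.482 in limma). *USP11*, a deubiquitinase of TGFBR1, rose from 3152 ± 16.9 to 5080 ± 335 (SD, n = 3 each), with a log2 fold change of 0.69 (adjusted p = 0.00101 in limma). The 40 nearest genes of *USP11* on chromosome X had a median rise of 0.41 in the clones, and without it the log2 fold change was 0.27 and no longer called. *LDLRAD4*, which keeps SMAD2 and SMAD3 from the receptor, rose from 106.9 ± 13.7 to 254.0 ± 45.8 (1.23, adjusted p = 0.00499 in limma). *NEDD4L*, a ubiquitin ligase for activated SMAD2 and SMAD3, fell from 3541 ± 33.5 to 2510 ± 298 (−0.50, adjusted p = 0.0124 in limma), at the edge of the fold cut-off, and was called in 10 of 15 other fits. *SMAD7*, an inhibitory SMAD outside the naming rule, was not called (log2 fold change 0.80, adjusted p = 0.118 in limma).

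Of 34 transcripts known to respond to TGF-beta, 32 were tested. Of these 9 rose and 3 fell (5.77% and 2.08% over all tested genes), with a median log2 fold change of 0.31. *CDH2* (N-cadherin), a marker of epithelial–mesenchymal transition, had a log2 fold change of 1.96 (adjusted p = 9.05e-06 in limma). The paper found SAMD1 at the *CDH2* promoter. In its KO cells, a SAMD1 fusion protein moved into the nucleus rescued *CDH2* expression, while a mutant of the DNA-binding domain did not. The paper proposes that SAMD1 represses *CDH2* directly. Whether the rise of *CDH2* is a response to TGF-beta was not tested. *SPHK1*, a sphingosine kinase, rose from 307.9 ± 9.92 to 967.4 ± 10.8 (SD, n = 3 each), with a log2 fold change of 1.65 (adjusted p = 0.00012 in limma). *BHLHE40*, a transcriptional repressor, had 0.58 (adjusted p = 0.00137 in limma), or 0.38 and no call with the median of its neighbours removed. Falls were found for *CCN2*, a matricellular protein (−0.74, adjusted p = 0.00416 in limma), *COL4A2*, a basement membrane collagen (−2.38, 0.0183), and *TAGLN*, an actin-binding protein (−1.08, 0.0468), all 3 named after their values were seen. *COL4A2* and *TAGLN* had an adjusted p under 0.05 in 3 of 6 fits with a library left out. Responsive transcripts thus moved in both directions.

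**Figure D5:**
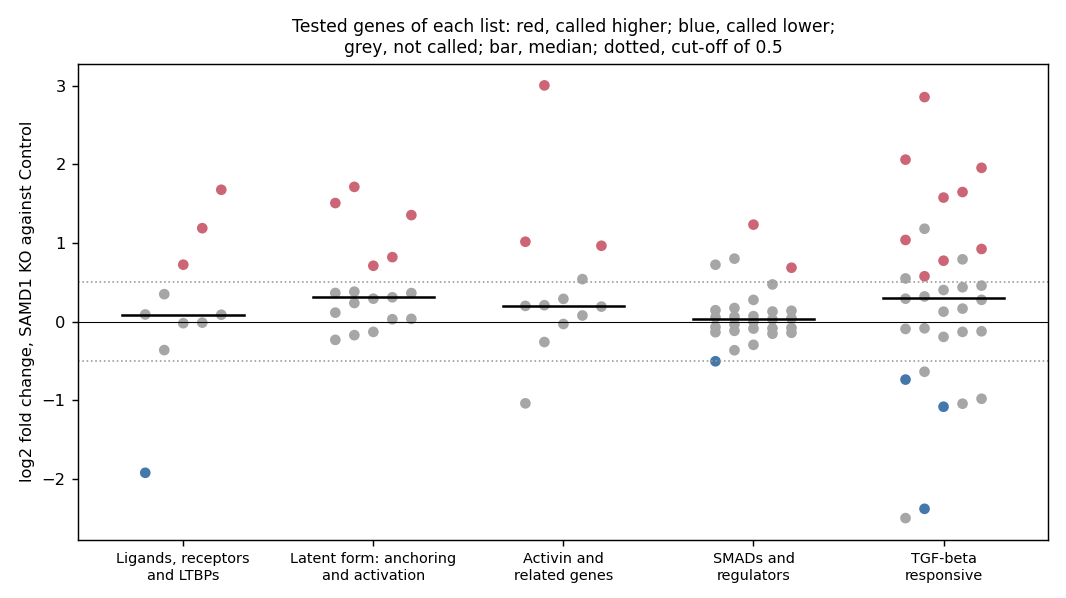
Log2 fold change (y axis) of the 10 genes and of every tested gene in the 4 pathway lists, with called genes in red (higher) or blue (lower) and medians as bars. The list medians lay at 0.31, 0.21, 0.04 and 0.31 for activation, related ligands and receptors, SMADs and responsive transcripts.

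The genes whose profile over the 6 libraries was most like that of each called gene were named by Pearson's r of log2 values. The 6 libraries fall into the control and KO groups, so any gene that differs between the groups shares part of this pattern, and r was not tested. *LTBP1* was closest to *GNAL* (0.999), *OSBPL1A* (0.998) and *ATXN1* (0.998), and 167 genes had r of 0.98 or more. *LTBP3* was closest to *SNRK*, *MEGF6* and *WNT7A* (0.995, 0.993 and 0.993), with 43 such genes. *TGFB3* was closest to *MYL6B*, *BCL3* and *ZNF423* (0.996, 0.995 and 0.994), with 63 such genes. *TGFB2* was closest to *RAB3B*, *SAMD1* and *CALD1* (0.997, 0.996 and 0.996), with 52 such genes.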

How the data were processed

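RNA from PaTu8988t control replicates and *SAMD1* KO clones (3 libraries each) was sequenced by the authors after stranded mRNA library preparation. RNA-STAR was used by them for alignment against GenCode 43 transcripts. The submitters' processing notes name featureCounts, DESeq2 and hg38. The strand setting of the counting is not given in the sources used here. The deposited signal is a normalized count, that is reads divided by 1 size factor per library. Whole reads were recovered by dividing by the step of each library (100% whole within 0.01). The authors' table of their own DESeq2 comparison (mean, fold change, standard error, statistic and p-values) was not used.

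limma 3.58.1 (lmFit, eBayes with trend, two-sided, R 4.3.3) was fitted to the 12773 genes with a mean of at least 10, on log2(normalized count + 1). Fold changes are on that scale and understate changes of low genes. Calls needed an absolute log2 fold change above 0.5 and p below 0.01 before adjustment. Adjustment was by Benjamini-Hochberg across the tested genes. An exact permutation test of 3 against 3 cannot go below 0.1. The fit was tested on simulated counts with the same dispersion in every gene and in both groups. A larger spread between clones than between controls, as seen here for several genes, was not simulated. Positions and exon lengths came from GENCODE 44 (99.3% of tested genes placed), promoters from RefSeq (10 of 10 genes matched). No sample column was left unused (0).

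Named were all 10 genes, *SAMD1*, up to 3 called genes with the smallest p per list, SMAD2 to SMAD4, and the 3 genes most like each called gene. Cell type markers, and genes said to be named after their values were seen, are outside this. Members and lists were chosen with earlier results of these data known. Alternatives were pseudocounts of 0.1 and 10, no filter or a mean of 50, 75th percentile rescaling, a replicate block, leaving out each library, edgeR 4.0.16 and DESeq2 1.42.0 on recovered reads, an adjusted p below 0.05 in the cut-off, and removal of the median of the 40 nearest genes.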

Additional observations from a re-analysis of the deposited data

How the results depend on the processing

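The 10 genes gave 3 higher and 1 lower call under all 16 alternatives tried, each gene with the same call. With the replicate block, 3 rose and 1 fell, and 725 genes were higher and 259 lower in all, against 737 and 266. Deviations of same-numbered libraries correlated at 0.039, 0.134 and 0.032, so the numbers were not taken to pair the libraries, and the block changed no member's call. edgeR called 779 and 247 genes, and DESeq2 830 and 265. Without filter 791 and 319 of 16476 genes were called.

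Signs turned for 4 of the 10 genes, none of them called. *TGFB1* (−0.02) was 0.00042 with 75th percentile rescaling, 0.016 without control 2 and 0.071 without clone 1, with a leave-one-out range of −0.12 to 0.071. *TGFBR1* (−0.01) was 0.0075 with that rescaling, 0.030 without control 3, 0.044 without clone 3 and 0.022 with the neighbours' median removed (−0.076 to 0.044). *TGFBR2* (0.09) was −0.031 without clone 2 and −0.091 with the neighbours' median removed (−0.031 to 0.23). *LTBP2* was −0.13 without clone 1 (−0.13 to 0.27). *SMAD2* and *SMAD3* also reached values just below 0 with a library left out. The family list had 1 rise instead of 3 with a mean of at least 50. *INHBB* (means of 4.09 in controls and 39.6 in clones) was then not tested. *GDF15*, with an unadjusted p of 0.00965 in limma in the main fit, was then not called. The family list had 0 to 1 falls with a library left out (1 without clone 1). The 1 fall in the SMAD list was lost (0) with rescaling, edgeR and DESeq2, and it was 0 to 1 with a library left out (0 without control 1 and without clone 2). The cause of the other shifts was not tested. *TGFB2*, *INHBB* and *ITGB8* are among the named genes that rest on few reads.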
